A study of Mus musculus with 24 samples.

Results

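The BCL2 family genes that set the threshold for mitochondrial cell death were followed by RNA-seq in natural killer (NK) cells sorted from the spleen of mice with and without lymphoma. The members are 10 genes picked by symbol for their known roles in survival and death, out of 45237 genes in the count table: Bcl2, Bcl2l1, Mcl1, Bcl2a1b, Bcl2a1d, Bcl2l11, Pmaip1, Bbc3, Bax and Bak1. Each symbol matched 1 gene, and all 10 had enough counts to enter the test among 17097 genes. The rule used no measured value.

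All mice were wild type C57BL/6J animals, which the study's methods give as female and 7 to 9 weeks old, and the 4 control libraries come from mice without a tumor. The labels number the libraries of a group without saying more of their origin, so p-values measure the spread between these libraries. RMA is a T cell lymphoma line that keeps its MHC-I, and both tumor lines carry the fluorescent protein ZsGreen. RMA-KR derives from it by B2m knockout, which removes MHC-I, and by a lentivirus that carries the NKG2D ligand Rae1-β, and it was subcloned by limiting dilution. NK cells were taken from RMA-bearing mice at an early (day 2, n = 3), intermediate (day 4, n = 3) and late stage (day 9, n = 3), and from RMA-KR-bearing mice at an early (day 2, n = 3), intermediate (day 7, n = 5) and late stage (day 14, n = 3). Intermediate and late stages differ between the tumors in both the line and the day, and these cannot be told apart. NK cells were sorted as NK1.1 or NKp46 positive, with cells positive for lineage markers such as CD3, CD5 or T cell receptors, or for viability dye, left out, to a purity of 98 to 100%. Because dye-positive cells were removed by the gate, the libraries describe cells that were alive at the sort.

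Total counts ran from 5138651 to 14863500 per library. The summed NK cell markers were high in every library (19838 to 35415 normalized CPM, which are counts scaled to a common library size with TMM factors), whereas B cell (at most 24.2), granulocyte (at most 17.2) and red blood cell markers (at most 11.3) were near 0. Markers shared by T cells and the T lymphoma summed to 362 to 695 and plasma cell markers to 213 to 579. In 4 libraries, control 4 and RMA-KR intermediate 3, 4 and 5, the summed immediate early genes, which cells switch on within minutes of stimulation or handling, reached only 1723 to 2002 normalized CPM, against 5052 to 12395 in the other 20. In bulk RNA, fewer cells that express a gene and less RNA per cell cannot be told apart.

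Cells die by the mitochondrial route when the effector proteins BAX and BAK open the outer membrane of mitochondria and release cytochrome c, which activates caspases. The survival proteins BCL2, BCL-XL (from Bcl2l1), MCL1 and A1 (from the Bcl2a1 genes) hold the effectors and their activators in check. The BH3-only proteins BIM (Bcl2l11), NOXA (Pmaip1) and PUMA (Bbc3) bind the survival proteins and free the effectors, and NOXA prefers MCL1 and A1. In NK cells, IL-15 keeps cells alive largely through MCL1 and BCL2 and by restraining BIM.

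Among the 10 genes, Bcl2a1b and Bcl2a1d need a look at their sequence before their counts are read, because the mouse genome holds near-identical copies of A1 on chromosome 9. The first coding bases of the 3 full-length copies in the GENCODE M21 annotation (GRCm38) are shown because they hold positions at which the copies differ. Capitals mark the positions at which the 3 copies are not all equal.
Bcl2a1b: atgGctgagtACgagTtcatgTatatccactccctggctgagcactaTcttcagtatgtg
Bcl2a1d: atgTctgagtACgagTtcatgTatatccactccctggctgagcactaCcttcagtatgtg
Bcl2a1a: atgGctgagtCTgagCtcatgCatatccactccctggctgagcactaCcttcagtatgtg
These 60 bases are the start of the coding part of exon 1, at chr9:89199360-89199419 on the plus strand for Bcl2a1b, chr9:88731660-88731719 on the minus strand for Bcl2a1d and chr9:88957051-88957110 on the plus strand for Bcl2a1a. Of the 516 coding bases, Bcl2a1b and Bcl2a1d differ at 6 (98.8% identity), and only 2 of these lie in the stretch shown. Bcl2a1b and Bcl2a1a differ at 11 coding bases.

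The reads were 50 bases long. Of all 50-base stretches in the annotated transcript, 20.8% of those of Bcl2a1b and 20.5% of those of Bcl2a1d were found in no other gene's transcripts. For Bcl2a1b, 49.1% of the exonic bases lie inside exons of the overlapping gene model Gm29094 on the same strand, where union-mode counting assigns a read to neither gene. Stretches shared with Gm29094 are already left out of the 20.8%. The counts of both A1 genes are therefore low and uncertain in their split, with 10 to 126 reads per library for Bcl2a1b and 1 to 59 for Bcl2a1d. Bcl2a1a was not tested because its counts were too low. The other 8 members were mostly free of this problem: the share of stretches found in no other gene was 100% for Bcl2l1, Mcl1, Pmaip1 and Bbc3, and 82.9% for Bak1, which overlaps Ggnbp1 on the other strand. Bcl2, Bcl2l11 and Bax lay between at 94.7%, 99.9% and 91.5%.

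Levels between members were compared per kilobase of transcript. Over the 24 libraries, Bcl2l11 stood highest at 90.1 ± 26.3 normalized CPM per kb (mean ± SD), followed by Bcl2l1 at 84.9 ± 23.8 and Bax at 84.1 ± 17.7. Neither step between these 3 genes was larger than the spread over libraries. Mcl1 (59.0 ± 17.6) and Bcl2 (47.2 ± 15.4) came next and also did not differ beyond that spread, and the same held for Bbc3 (24.5 ± 6.21) and Pmaip1 (17.9 ± 11.4). The lowest levels per kb were those of Bcl2a1b (5.96 ± 3.20), Bcl2a1d (2.55 ± 1.49) and Bak1 (0.985 ± 0.475). The effectors thus sat at opposite ends: the lowest Bax library (53.6 per kb) lay far above the highest Bak1 library (2.25 per kb). These levels use the median transcript length in the deposited table, and those of the A1 genes are lowered by the shared sequence. All annotated exons of a gene together are longer than this median, by unequal factors. Bcl2l11 has 8029 exonic bases against a median length of 1956, and Mcl1 has 3418 against 2138. The order of the members, with Bcl2l11 first, therefore depends on the length used.

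**Figure D1:**
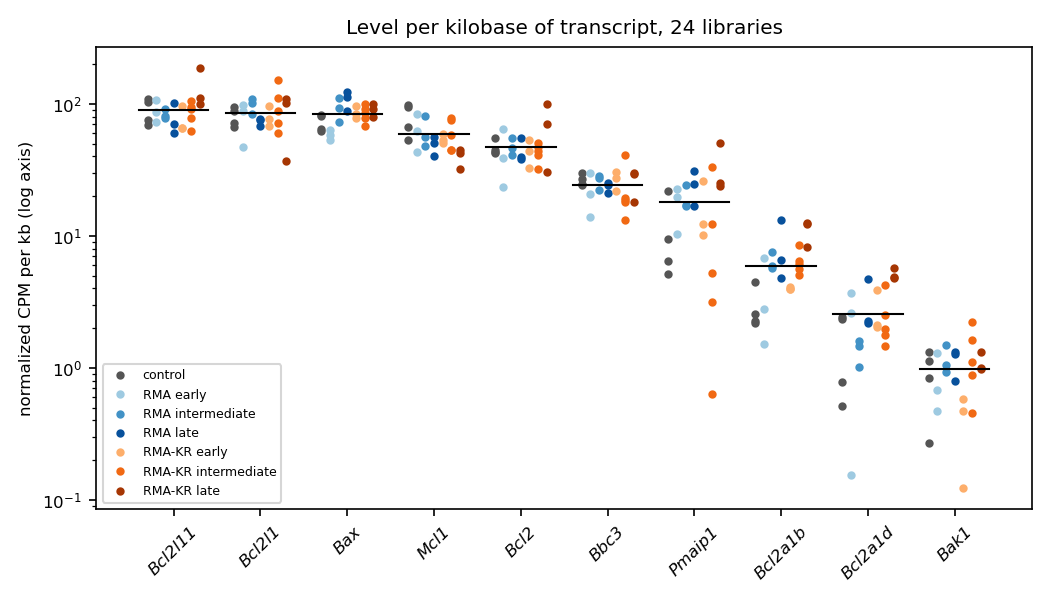
Level of each BCL2 family gene in normalized CPM per kb of median transcript length (log axis) in each of the 24 libraries, colored by group, with the mean over libraries as a black line. Bcl2l11, Bcl2l1 and Bax lie highest, with means of 84.1 to 90.1, and Bak1 lies lowest, with a mean of 0.985.

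To ask whether tumor growth moved these genes, each tumor group was set against the control group, RMA against RMA-KR at each stage, and the late against the early stage within each tumor. In these 11 comparisons, 0 of the 10 members passed both thresholds, which were a fold change above 2 and an adjusted p under 0.05, with edgeR's quasi-likelihood test and Benjamini-Hochberg adjustment over all genes tested. Of the 110 member comparisons, 11 had an unadjusted p under 0.05, and 1 had an adjusted p under 0.05, that of Bax between RMA late and RMA early. The members that stood furthest from control at the late stages were Bcl2a1b, Bcl2a1d and Pmaip1 on the higher side and Mcl1 on the lower side. DESeq2, run as an alternative, called Bcl2a1b at both late stages and no other member in any comparison. With default settings, 1 of 10 members was then called beside 5.25% of all genes with an adjusted p in RMA late and 3.01% in RMA-KR late, and with betaPrior 1 of 10 beside 4.45% and 3.02%. With DESeq2, Mcl1 in RMA-KR late and Bax in RMA late against control and against RMA early also had an adjusted p under 0.05, each with a change below 2-fold.

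**Figure D2:**
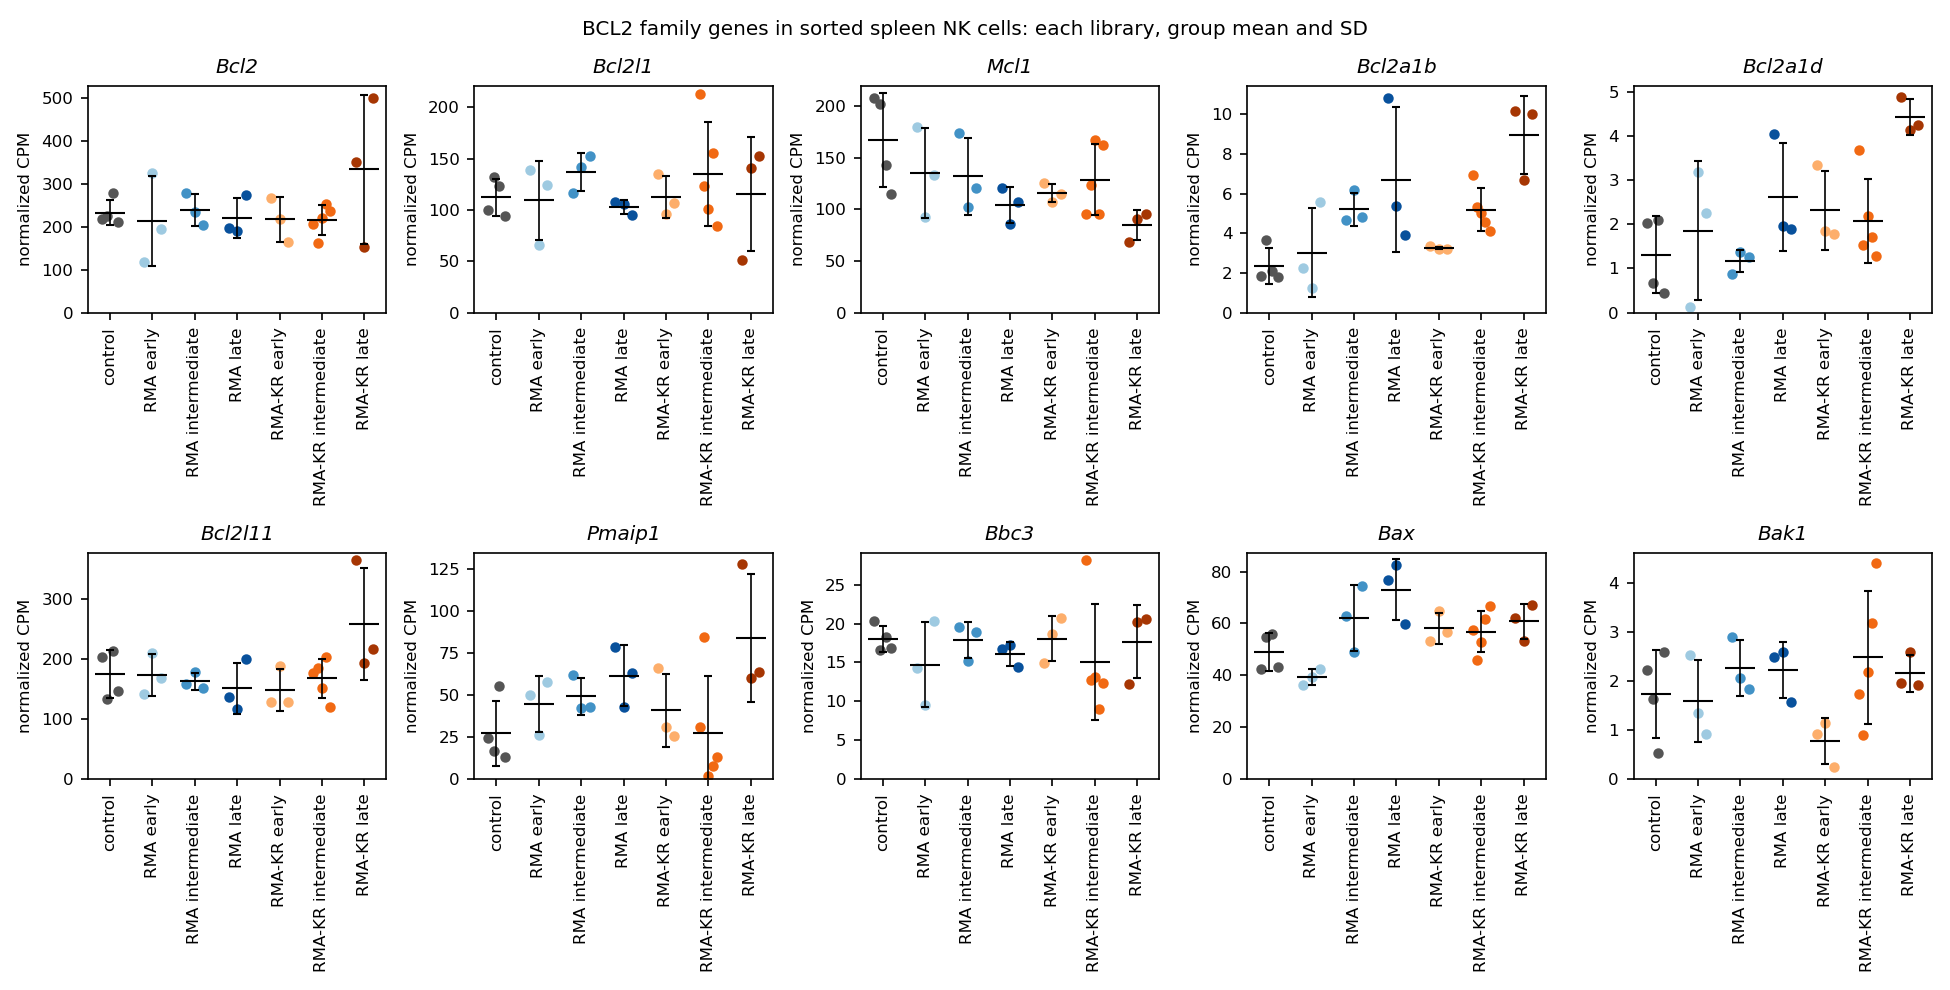
Normalized CPM of the 10 genes in each library (points), with the group mean and SD (black), for control and the 6 tumor groups; every axis starts at 0. Mcl1 is lowest in RMA-KR late (84.9 ± 14.8) and Bcl2a1b highest in the same group (8.95 ± 1.97).

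The background against which the members are read differed between comparisons. The share of all 17097 genes called was 0% for RMA early, 1.65% for RMA intermediate and 1.79% for RMA late against control. It was 0.0819% for RMA-KR early, 0.0175% for RMA-KR intermediate and 0.983% for RMA-KR late. With 0 members called, no share among the members stood above these. An unadjusted p under 0.05 was found for 3 of 10 members in RMA late (14% of all genes) and 4 of 10 in RMA-KR late (14.2% of all genes), and for 0 of 10 in RMA early (7.04%), RMA intermediate (15.9%), RMA-KR early (8.71%) and RMA-KR intermediate (5.91%). An adjusted p under 0.05 without the fold threshold was found for 0 of 10 members in these 6 comparisons, beside 0% of all genes in RMA early, 2.35% in RMA intermediate, 2.66% in RMA late, 0.0994% in RMA-KR early, 0.0175% in RMA-KR intermediate and 1.22% in RMA-KR late. The median log2 fold change of the members was 0.14 in RMA late and 0.41 in RMA-KR late, beside -0.18 over all genes in each of these comparisons.

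Mcl1, the short-lived survival protein that NK cells depend on, was lower than control on average in 6 of 6 tumor groups, and none of the 20 tumor libraries exceeded the highest control. The 4 control libraries held 208, 202, 143 and 115 normalized CPM. RMA late held 120.4, 85.9 and 107, and RMA-KR late held 68.1, 90.9 and 95.8. All 3 RMA-KR late libraries lay below the lowest control, while the highest RMA late library lay just above it. Against control (167 ± 45.5, n = 4), the log2 fold change was -0.97 (SE 0.27, 95% interval -1.53 to -0.42) in RMA-KR late (84.9 ± 14.8, n = 3), with an edgeR adjusted p of 0.0816. It was -0.67 (SE 0.27) in RMA late (105 ± 17.4, n = 3), with an edgeR adjusted p of 0.233. The adjusted p of Mcl1 in RMA-KR late fell under 0.05 in 3 of the alternatives, at 0.0439 with edgeR and a minimum of 10 counts per library, 0.0274 with DESeq2 default and 0.0244 with DESeq2 betaPrior, and ran up to 0.123 in the other settings apart from leaving out single libraries, with log2 values between -1.08 and -0.91. Leaving out 1 library at a time gave log2 values between -1.13 and -0.85 and an adjusted p between 0.0639 and 0.332. With the 4 libraries of low immediate early level left out, a setting added after the data were seen, the RMA-KR late value was -1.08 (SE 0.26, adjusted p = 0.0699).

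Earlier stages were less separated for Mcl1. RMA-KR early held 125, 107 and 115 normalized CPM and RMA early held 179, 92.7 and 133, values that overlap with control. In the 5 RMA-KR intermediate libraries Mcl1 ran from 95.6 to 167 with a median of 123, and RMA intermediate held 174, 102 and 120.5. Within RMA-KR, all late libraries lay below all early libraries, with a log2 fold change of -0.45 (SE 0.28, edgeR adjusted p = 0.449), where 15.5% of all genes did not overlap between the groups and 5 of the 10 members did not.

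Bcl2a1b, a copy of the A1 survival gene that activated lymphocytes and myeloid cells induce, was higher than control on average in 6 of 6 tumor groups. Control libraries held 1.85, 3.67, 2.11 and 1.79 normalized CPM. RMA late held 10.8, 5.40 and 3.89, and RMA-KR late held 10.1, 6.68 and 10.02. Both late groups lay wholly above control, as did RMA intermediate (4.68, 6.18 and 4.81) and the 5 RMA-KR intermediate libraries (4.12 to 6.94, median 5.05). Together with RMA early 3 (5.55), 15 of 20 tumor libraries exceeded the highest control. The early groups were closer to control, at 2.27, 1.24 and 5.55 in RMA and 3.34, 3.22 and 3.22 in RMA-KR.

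The log2 fold change of Bcl2a1b against control was 1.92 (SE 0.67, 95% interval 0.54 to 3.30) in RMA-KR late and 1.51 (SE 0.66, interval 0.14 to 2.87) in RMA late. The edgeR adjusted p was 0.21 and 0.306. The call appeared with a stricter filter on low counts and with DESeq2, which differs in the test, the scaling and the genes adjusted over. DESeq2 with default settings gave 1.94 with an adjusted p of 0.00142 in RMA-KR late and 1.501 with an adjusted p of 0.0157 in RMA late. The same edgeR test with a minimum of 10 counts per library gave an adjusted p of 0.00729 and 0.0229, in fits that called 2.59% and 4.83% of all genes. Across all genes, groups did not overlap for 20.7% in RMA intermediate (1 of 10 members, Bcl2a1b), 18% in RMA late (2 of 10, Bcl2a1b and Bax), 2.63% in RMA-KR intermediate (1 of 10, Bcl2a1b) and 13.6% in RMA-KR late (4 of 10, Mcl1, Bcl2a1b, Bcl2a1d and Pmaip1). In RMA early (7.05%) and RMA-KR early (10.5%) all 10 members overlapped with control.

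Bcl2a1d, the other A1 copy, was higher in RMA-KR late, where it held 4.90, 4.15 and 4.24 normalized CPM, than in control, where it held 2.03, 0.675, 2.11 and 0.446. All late RMA-KR libraries lay above all controls and above the RMA late libraries, which held 4.04, 1.95 and 1.89. The log2 fold change of RMA-KR late against control was 1.75 (SE 0.96, edgeR adjusted p = 0.39), an uncertain value that rests on 5 to 20 reads per control library and 44 to 59 per RMA-KR late library. Between RMA late and RMA-KR late it was -0.75 (SE 1.03, adjusted p = 0.904; between -1.16 and -0.56 with 1 library left out), in a comparison where 9.13% of all genes and 1 of 10 members did not overlap and 0% of all genes were called.

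Because A1 is also expressed by myeloid cells, the macrophage and monocyte markers are given beside these values. The sum of the 10 markers was 8.74 to 16.4 normalized CPM in control, 25.9 to 49.9 in RMA late and 39.6 to 79.7 in RMA-KR late. Like Bcl2a1b, the sum was thus higher in both late groups than in control. Nearly all of it came from 1 gene, the lysosomal protein gene Cd68 (11.1 ± 3.39 in control, 33.6 ± 12.4 in RMA late, 57.9 ± 20.9 in RMA-KR late). Of the 10 markers, 5 were at 0 in all 3 RMA late libraries and 6 in all 3 RMA-KR late libraries, among them Adgre1, C1qa and C1qb, which were also low in control (means of 0.357, 0.0223 and 0.265). Other markers had higher means in a late group than in control: C1qc (0.283 in RMA late and 0.119 in RMA-KR late against 0.0462), Csf1r (1.39 in RMA late against 1.24), and Vcam1 (1.15 against 0.113) and Cd14 (0.415 against 0.0462) in RMA-KR late. In the other late group, Csf1r (RMA-KR late) and Cd14 (RMA late) went the other way and were at 0. In RMA intermediate, where Bcl2a1b was already above every control, the sum was 16.2 to 20.5. In RMA-KR intermediate, where Bcl2a1b was also above every control, the sum ran from 5.67 to 28.9 (median 15.2). Within RMA late, Bcl2a1b was highest in RMA late 1 (10.8, with Cd68 at 28.1) and lowest in RMA late 3 (3.89, with Cd68 at 47.8). Within RMA-KR late, both genes were highest in RMA-KR late 1 (10.1 and 78.0). Among granulocyte markers, Ngp averaged 1.65 ± 2.76 in RMA late against 0.132 in control, and Mpo 1.58 ± 2.74 against 0.0462. S100a8, S100a9, Elane and Camp were also higher there on average, Ly6g, Csf3r and Ltf were lower, and Retnlg was at 0 in both. The granulocyte sum was 17.2 in 1 RMA late library and 0.086 and 0.42 in the others, against 0.193 to 1.87 in control. The higher sum in RMA late thus came from 1 library. In RMA-KR late, Ngp and Mpo were at 0 and Csf3r averaged 1.06 against 0.298 in control. Markers of B and plasma cells were also higher on average in RMA-KR late than in control. The summed B cell markers were 8.55 to 24.2 against 5.30 to 17.1, with Cd79b at 12.5 ± 7.77 against 2.90 ± 2.32, and the summed plasma cell markers were 404 to 579 against 236 to 392, most of it Ighm (425 ± 59.6 against 303 ± 69.0). The immunoglobulin gene Igkc was at 53.8 ± 70.4 against 1.96 ± 0.625, and Jchain at 11.3 ± 7.95 against 0.915 ± 1.19. None of these 4 genes was called in RMA-KR late. The part of any of these cells in the members' values was not tested.

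Bcl2, the founding survival gene, differed little from control in most groups. Control libraries held 217, 226, 278 and 212 normalized CPM, and RMA late held 198, 191 and 275. RMA-KR late was the group with the widest spread, with 351, 153 and 499: 2 of its libraries lay above every control and 1 lay below every control. The log2 fold change of RMA-KR late against control was 0.52 (SE 0.30, 95% interval -0.11 to 1.15, edgeR adjusted p = 0.425). It moved to 0.15 without RMA-KR late 3 and to 0.89 without RMA-KR late 2. In the other 5 tumor groups the log2 fold change lay between -0.13 and 0.04. Leaving out 1 library at a time moved the RMA early value (-0.13) between -0.55 and 0.19. Under the other settings, the RMA-KR intermediate value (-0.12) went as low as -0.37.

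Bcl2l1, which encodes BCL-XL, showed the same picture. It held 99.8, 132, 123 and 93.9 normalized CPM in control, 107, 106 and 95.5 in RMA late and 51.5, 141 and 153 in RMA-KR late. The late RMA libraries lay within the range of the controls, and the late RMA-KR libraries lay on both sides of it. Log2 fold changes against control ran from -0.13 in RMA late to 0.29 in RMA intermediate, each smaller than its SE of 0.28 to 0.32.

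Among the BH3-only genes, Bcl2l11, whose product BIM binds every survival protein, was highest in RMA-KR late. The control libraries held 204, 134, 214 and 147 normalized CPM, RMA late 137, 118 and 200.2, and RMA-KR late 366, 194 and 218. A single RMA-KR late library was far above the rest, 1 lay just above the highest control, and 1 lay among the controls. Against control, the log2 fold change in RMA-KR late was 0.57 (SE 0.24, edgeR adjusted p = 0.326). Without that library (RMA-KR late 1), it was 0.23.

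Late RMA-KR libraries were also set against RMA-KR early, which held 129, 189.6 and 129 normalized CPM of Bcl2l11. These groups did not overlap, with a log2 fold change of 0.79 (SE 0.26, edgeR adjusted p = 0.205), in a comparison where 0.322% of all genes were called, 0.392% had an adjusted p under 0.05, and 15% (1 of 10 members) had an unadjusted one. Without RMA-KR late 1 the value was 0.46. Between RMA late and RMA-KR late, where the groups overlapped by a single library, the value was -0.77 (SE 0.26, 95% interval -1.31 to -0.23, edgeR adjusted p = 0.655; -0.44 without RMA-KR late 1), and 1 of 10 members and 7.31% of all genes had an unadjusted p under 0.05.

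Pmaip1, whose product NOXA binds MCL1 and A1 and promotes the breakdown of MCL1, had the widest range of the well-counted members. It held 24.2, 16.5, 55.2 and 13.1 normalized CPM in control, 78.8, 42.8 and 63.2 in RMA late, and 128, 60.4 and 63.8 in RMA-KR late. All RMA-KR late libraries exceeded all controls, and the RMA late libraries overlapped with the highest control only. The log2 fold change against control was 1.63 (SE 0.73, 95% interval 0.11 to 3.14, edgeR adjusted p = 0.335) in RMA-KR late and 1.18 (SE 0.73, edgeR adjusted p = 0.496) in RMA late. When no filter on low counts was applied, the RMA-KR late value of 1.63 had an edgeR adjusted p of 0.00667 and passed both thresholds, as did 0.871% of all genes. In every other setting the adjusted p was 0.167 or higher, with 1.16 (adjusted p = 0.578) under the replicate block, 1.64 (0.227) with DESeq2 default and 1.199 (0.215) with betaPrior. Leaving out 1 library at a time moved the value between 1.17, without RMA-KR late 1, and 2.22, without control 3.

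The RMA-KR intermediate group was split for Pmaip1, with 31.2 and 84.5 normalized CPM in 2 libraries and 1.61, 7.96 and 13.4 in the other 3. The last 3 are the libraries of low immediate early level, and together with control 4 they held the 4 lowest Pmaip1 values of all 24 libraries. With these 4 libraries left out, the log2 fold change of RMA-KR intermediate against control was 0.87 (SE 0.54) instead of 0.03 (SE 0.65), and that of RMA intermediate against RMA-KR intermediate turned from 0.83 (SE 0.69) to -0.23 (SE 0.54). Leaving out only 1 library at a time moved the 0.03 between -1.01 and 0.63, and kept the 0.83 between 0.49 and 1.82. With the 4 libraries of low immediate early level left out, RMA-KR late against control was 1.43 (SE 0.50, edgeR adjusted p = 0.272). The part of the immediate early level in these values was not tested.

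**Figure D3:**
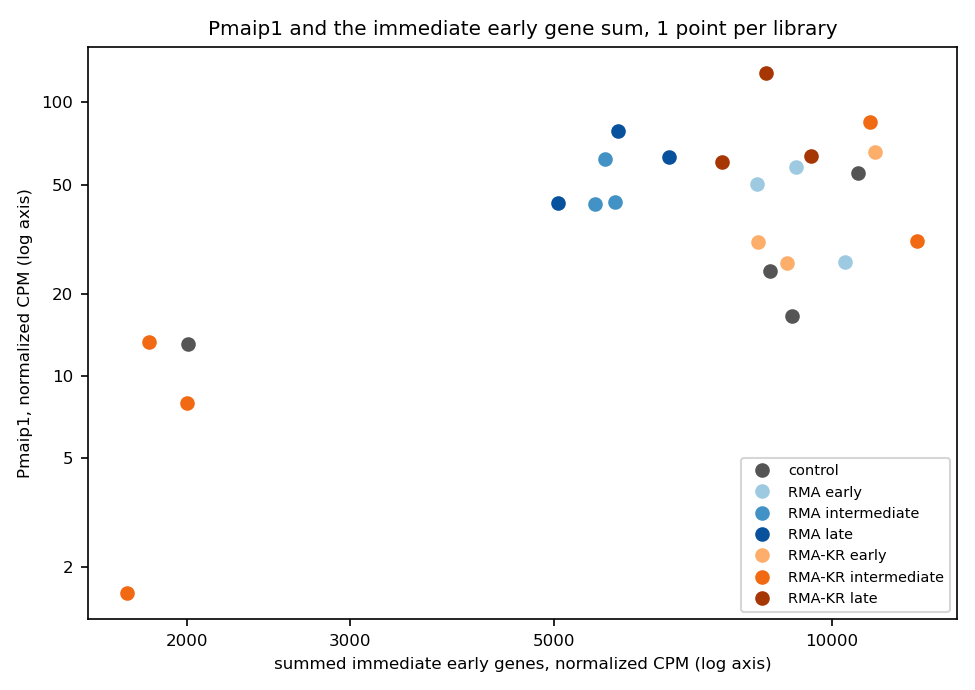
Pmaip1 against the summed immediate early genes, both in normalized CPM on log axes, with 1 point per library colored by group. The 4 libraries with a sum of 1723 to 2002 hold the 4 lowest Pmaip1 values, between 1.61 and 13.4; the 3 RMA-KR late libraries lie between 60.4 and 128.

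The genes whose log2 levels followed Pmaip1 most closely across the 24 libraries, given as a description without a test, were the stress- and activation-induced genes Bhlhe40 (Pearson's r = 0.84), Rgs1 (0.83) and Csrnp1 (0.82). For Bcl2a1b they included Crlf3 (0.84) and Cd86 (0.81), and for Bax they were the lysosomal protease gene Ctss (0.82), Limd2 (0.80) and Fcf1 (0.79). Libraries share a group, a depth and a preparation in these values, and the closest genes were picked as the highest of 8372 to 8373 candidates. For Mcl1, the closest gene was Tpt1 (0.71).

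Among members, the highest correlations across libraries were those of Bax with Bcl2a1b (r = 0.58) and Bcl2 with Bcl2l11 (0.50), and the lowest was that of Mcl1 with Bcl2a1d (-0.57). Pmaip1, whose product targets MCL1, was not tied to Mcl1 closely (r = -0.33). The ratio of Pmaip1 to Mcl1 reads in a library had a median of 0.115 in control (0.0817 to 0.387), 0.588 in RMA late (0.498 to 0.654) and 0.666 in RMA-KR late (0.664 to 1.88), so that every late library lay above every control. This separation restates the Pmaip1 and Mcl1 values given above, and how often ratios of other genes separate was not tested. The ratio overlapped with control in RMA early (0.281 to 0.435), RMA intermediate (0.357 to 0.418) and RMA-KR early (0.226 to 0.526). In RMA-KR intermediate this ratio ran from 0.0096 to 0.684. By contrast, the ratio of Bcl2l11 to Bcl2 reads overlapped between control (0.594 to 0.939) and both late groups (0.617 to 0.728 in RMA and 0.436 to 1.27 in RMA-KR).

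Bbc3, the gene of PUMA and a classic p53 target, was not called in any comparison. It held 20.3, 16.6, 18.3 and 16.9 normalized CPM in control, 16.7, 17.3 and 14.4 in RMA late and 12.3, 20.2 and 20.5 in RMA-KR late. In RMA-KR intermediate it held 28.1, 12.8, 13.2, 8.98 and 12.4, with 1 library above every control and 4 below every control. Over all tumor groups, 10 of 20 libraries lay below every control and 4 above. All 6 tumor groups overlapped with control, with log2 fold changes between -0.29 and 0.00, each with an SE of 0.35 to 0.41. Without RMA-KR intermediate 1 the value of that group moved from -0.25 to -0.62 (edgeR adjusted p = 0.853), and without the 4 libraries of low immediate early level it was 0.17.

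Of the effectors, Bax had an adjusted p under 0.05 between RMA late and RMA early, the only such value among the members with edgeR as fitted on all 17097 genes and 24 libraries. It held 36.2, 39.5 and 42.6 normalized CPM in RMA early and 76.7, 82.6 and 59.8 in RMA late, and these groups did not overlap. The log2 fold change was 0.89 (SE 0.22, 95% interval 0.43 to 1.35, edgeR adjusted p = 0.0335), below the 2-fold threshold. In this comparison 2.87% of all genes had an adjusted p under 0.05, 17.2% an unadjusted one (1 of 10 members), 2.01% were called, and 19.1% did not overlap between the groups. Leaving out a library of either group moved the value between 0.79 and 1.02 and its adjusted p between 0.0292 and 0.228; only without RMA late 3 did Bax pass both thresholds, in a fit that called 2.36% of all genes. Its adjusted p was also above 0.05 with the replicate block (0.0545), with DESeq2 size factors in edgeR (0.0511), with only the compared groups (0.204) and with no filter (0.341), at log2 values of 0.81 to 0.92. With DESeq2 default it was 0.00208.

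Against control (42.3, 54.7, 56.0 and 43.2 normalized CPM), Bax was higher in RMA late, where all libraries lay above all controls (0.57, SE 0.21, edgeR adjusted p = 0.173, DESeq2 default adjusted p = 0.0298). Of the RMA early libraries, 2 lay below every control and 1 lay between the lowest controls (-0.32, SE 0.21, edgeR adjusted p = 0.761). At day 2, the RMA early libraries lay wholly below the RMA-KR early libraries, which held 53.04, 64.6 and 56.8, with a log2 fold change of -0.56 (SE 0.22, edgeR adjusted p = 0.344), where 12.8% of all genes and 1 of 10 members did not overlap and 0.304% of all genes were called. RMA-KR late held 62.0, 53.4 and 67.0, close to RMA-KR early (log2 fold change 0.06, SE 0.22). The rise within RMA was not tested against the change within RMA-KR.

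Bak1 was barely detected, with 3 to 45 reads per library. It held 2.22, 1.64, 0.527 and 2.59 normalized CPM in control, 2.49, 2.61 and 1.58 in RMA late and 1.96, 2.60 and 1.93 in RMA-KR late, and the groups overlapped. RMA-KR early was lowest at 0.927, 1.15 and 0.241, below all RMA-KR late libraries (log2 fold change 1.47 from early to late, SE 1.01, edgeR adjusted p = 0.499). A difference of 2-fold in Bak1 was not detectable at this depth, since the SE of its log2 fold changes was 0.82 to 1.01.

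**Figure D4:**
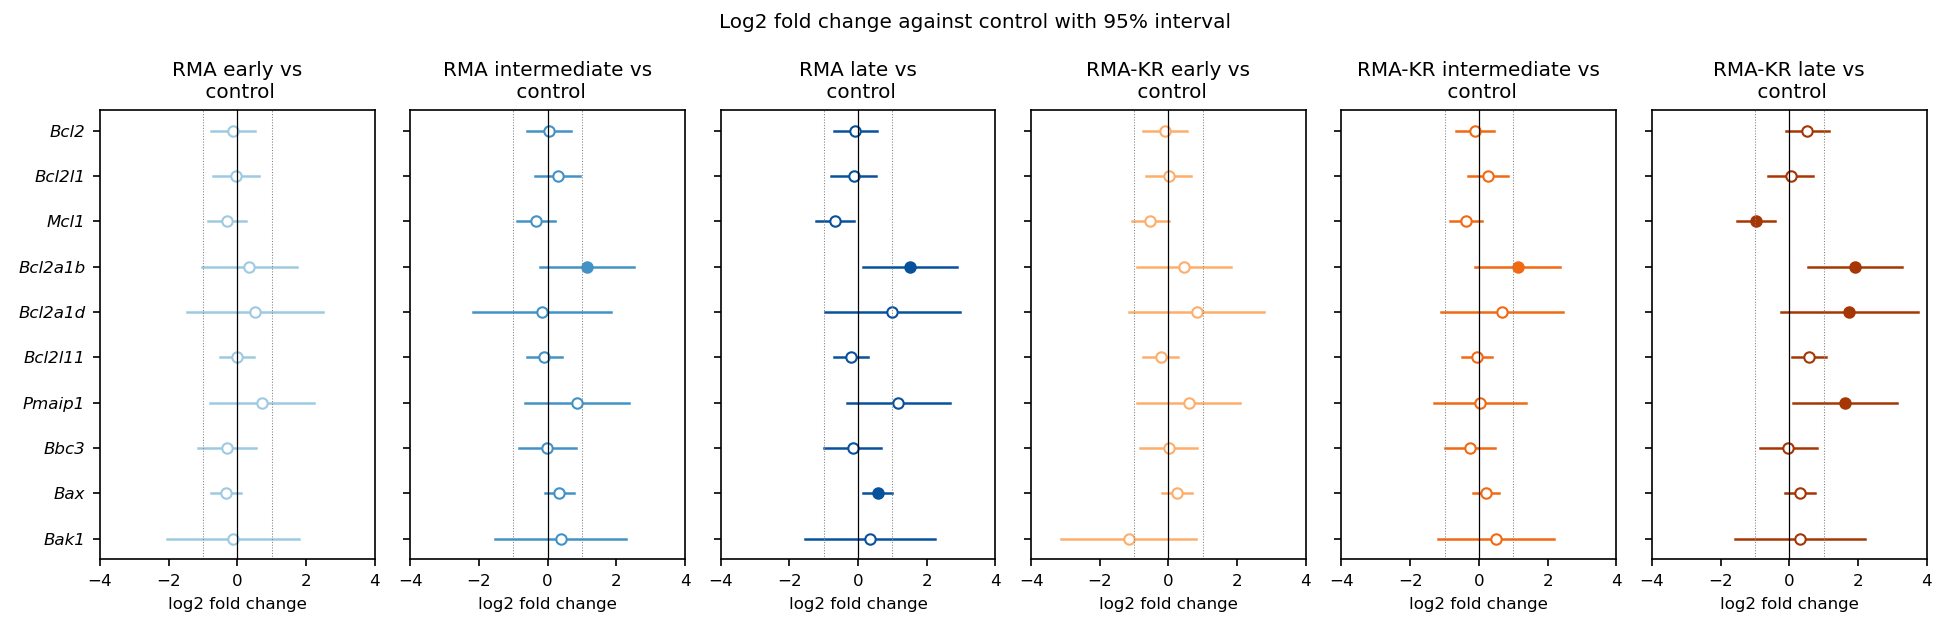
Log2 fold change of the 10 genes in each tumor group against control (points) with its 95% interval (lines); filled points mark genes whose libraries do not overlap with control, and dotted lines a 2-fold change. Mcl1 lies lowest in RMA-KR late (-0.97) and Bcl2a1b highest (1.92), and intervals are widest for the low-count genes Bcl2a1d and Bak1.

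Directly comparing the tumors, 0 of 10 members were called at the early, intermediate (0.503% of all genes) and late stages. An adjusted p under 0.05 alone was found for none of the members, beside 0.339% of all genes early, 0.643% intermediate and 0% late. An unadjusted p under 0.05 was found for 1 of 10 members early (12.3% of all genes) and 0 of 10 at the intermediate stage (14.2%), where 9.18% of all genes and 0 of 10 members did not overlap between the groups. The medians of the members' log2 fold changes of RMA against RMA-KR were -0.03 early, 0.03 intermediate and -0.29 late, beside -0.03, -0.23 and 0.06 over all genes.

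Of 13 further BCL2 family genes, 8 could be tested and 0 were called in any comparison with edgeR; an unadjusted p under 0.05 was found for 2 of 8 in RMA early against control (7.04% of all genes), 2 of 8 in RMA early against RMA-KR early (12.3%), 2 of 8 in RMA late against RMA early (17.2%) and none in the other comparisons. The BH3-only gene Bid, which links death receptors to mitochondria, was at 118 ± 24.02 normalized CPM in control, 122 ± 25.2 in RMA late and 155 ± 11.2 in RMA-KR late. Bad, a BH3-only gene tied to growth factor signaling, was at 15.3 ± 2.29 in control and 35.0 ± 7.55 in RMA late. Its log2 fold change from RMA early to RMA late was 1.77 (SE 0.72, edgeR adjusted p = 0.208).

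Of 6 inhibitors of apoptosis, Birc5 alone was called. Its product, survivin, also serves in chromosome segregation, and it rose with the proliferation genes, of which 9 of 10, Birc5 among them, were called higher in RMA late and 7 of 10 in RMA-KR late. Birc5 was at 10.97 ± 9.19 normalized CPM in control, 180 ± 37.2 in RMA late and 105 ± 44.7 in RMA-KR late. Its log2 fold change was 4.06 (SE 0.63, edgeR adjusted p = 0.000901) in RMA late and 3.28 (SE 0.62, edgeR adjusted p = 0.0082) in RMA-KR late. Without the 4 libraries of low immediate early level, the RMA-KR late value of Birc5 was 3.07 with an adjusted p of 0.0527.

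In the survival cytokine and FOXO pathway, which feeds into Mcl1, Bcl2 and Bcl2l11, Pim2 was called higher in 4 groups out of 15 genes tested. Pim2 encodes a kinase induced by STAT5 downstream of IL-2 and IL-15. It held 58.2, 101, 79.2 and 104 normalized CPM in control and 251, 205 and 259.6 in RMA-KR late, and these groups did not overlap. Against control, Pim2 changed on the log2 scale by 1.48 (SE 0.27, edgeR adjusted p = 0.00482) in RMA-KR late, 1.25 (SE 0.26, edgeR adjusted p = 0.0089) in RMA late, 1.46 (SE 0.24, edgeR adjusted p = 0.0337) in RMA-KR intermediate and 1.07 (SE 0.26, edgeR adjusted p = 0.0284) in RMA intermediate. Foxo3, a transcription factor that activates Bcl2l11, fell in RMA intermediate (33.7 ± 2.25 against 77.8 ± 16.8 in control, log2 fold change -1.21, SE 0.31, edgeR adjusted p = 0.0362), where Bcl2l11 stood at -0.09 (SE 0.24). Without the 4 libraries of low immediate early level, Foxo3 was at -1.16 (adjusted p = 0.102) and Pim2 in RMA-KR intermediate, from 2 libraries, at 1.27 (adjusted p = 0.733), so that both calls were lost with fewer libraries at folds of similar size, and the other 3 calls of Pim2 were kept.

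**Figure D5:**
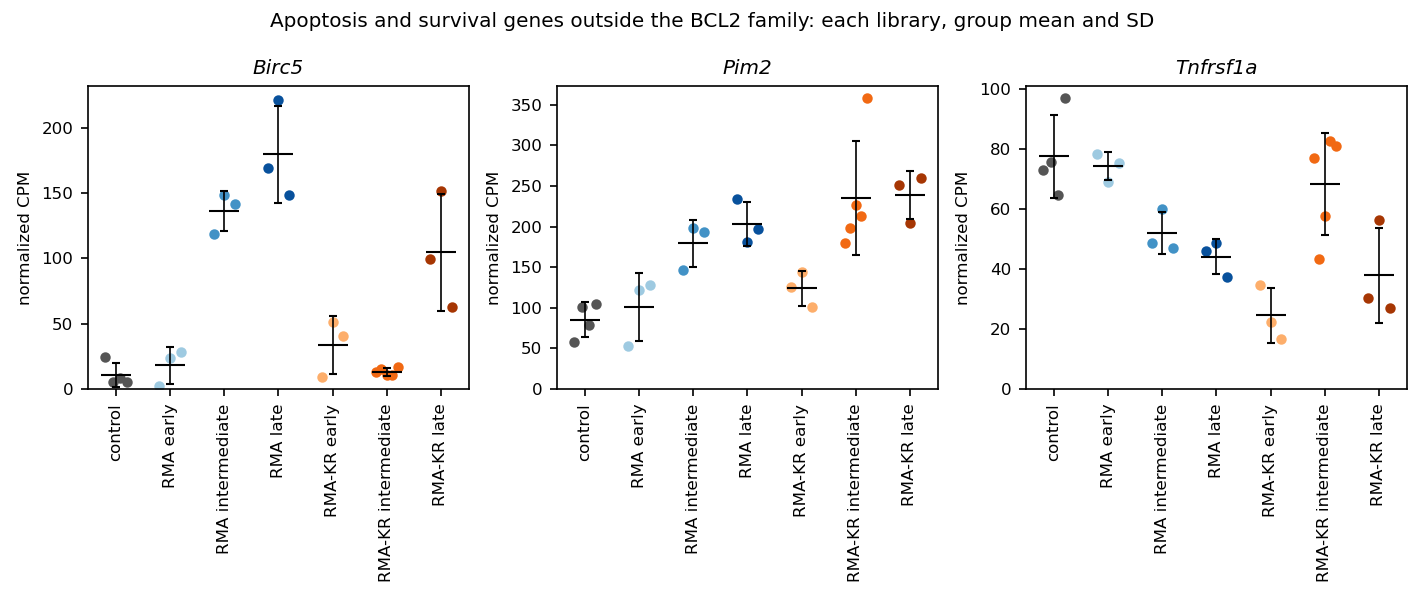
Normalized CPM of Birc5, Pim2 and Tnfrsf1a in each library (points) with the group mean and SD (black); every axis starts at 0. Birc5 and Pim2 lie above control in both late groups, and Tnfrsf1a is lowest in RMA-KR early (24.6 ± 9.15 against 77.6 ± 13.8 in control).

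In the death receptor pathway, 1 of 10 genes was called. Tnfrsf1a, the TNF receptor that can signal death or survival, held 73.2, 75.6, 64.6 and 97.0 normalized CPM in control and 34.7, 22.3 and 16.8 in RMA-KR early, with all early RMA-KR libraries below all controls. Its log2 fold change was -1.66 (SE 0.30, edgeR adjusted p = 0.0265), and RMA early was higher than RMA-KR early by 1.60 (SE 0.31, edgeR adjusted p = 0.0258). In the p53 pathway, 10 of 11 genes were tested and only Trp53inp1 was called, lower in RMA intermediate (116 ± 5.48 against 262 ± 62.5 in control, log2 fold change -1.17, SE 0.31, edgeR adjusted p = 0.0455). Without the 4 libraries of low immediate early level, Tnfrsf1a in RMA-KR early was at -1.4999 (adjusted p = 0.0966) and Trp53inp1 at -1.196 (adjusted p = 0.0847). The p53 targets among the members, Bbc3, Pmaip1 and Bax, were not called in that comparison.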

How the data were processed

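NK cell RNA from 24 libraries was sequenced as single-end reads of 50 bases. Per the submitters' notes and methods, the authors trimmed reads with cutadapt 1.10, removed ribosomal RNA reads with Bowtie2 2.2.8, aligned with STAR 2.5.3a to mm10, counted genes with HTSeq 0.6.1p1 in union mode and tested with DESeq2 1.16.1. The deposited counts are raw reads per gene without normalization, and the strand setting is not given in the sources used here. The table also holds the authors' comparisons and 48 other per-library columns, which were not used.

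Groups follow the labels. The members and gene lists were chosen with earlier results of these data known. Counts were fitted with edgeR 4.0.16 (R 4.3.3; TMM factors, filterByExpr, robust quasi-likelihood, 1 mean per group, all 24 libraries), and 17097 genes were tested with Benjamini-Hochberg adjustment. Called genes had a fold change above 2 with an adjusted p under 0.05. Standard errors were derived from the fold change and its F statistic. Named genes were the members, called genes of the fixed lists and a few further BCL2 family genes. Alternatives were DESeq2 1.42.0 (default and betaPrior), its size factors, other filters (none, or at least 10 counts in every library), only the compared groups, a replicate block and leaving out libraries. On simulated data for RMA late against control over 17097 genes, 12 of 100 genes changed 2-fold and 56 of 100 changed 4-fold were recovered, with 1 false call. The changed genes were drawn only from genes with higher mean levels than Bcl2a1b (4.87 normalized CPM), Bcl2a1d (2.20) and Bak1 (1.94). This recovery therefore does not cover these 3 low-count members. Some genes of the fixed lists are not reported here.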

Additional observations from a re-analysis of the deposited data

Results flagged for a closer look

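Among 20 member and group combinations of 4 or more libraries, 2 held a library far from the rest, where chance gives about 1 in 20. Bcl2a1b in control 2 was at 3.67 normalized CPM, with the nearest control at 2.11. Bbc3 in RMA-KR intermediate 1 was at 28.1 normalized CPM, with the nearest library of that group at 13.2.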

How the results depend on the processing

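Of 1618 member values recomputed under the alternatives, 1610 stayed on their side of the thresholds and 8 passed them, and 147 uncalled values changed sign. The count of members called rose from 0 to 1 in RMA late against control with at least 10 counts in every library and with DESeq2, default or betaPrior (Bcl2a1b each time, log2 1.49, 1.501 and 1.32). In RMA-KR late against control it rose to 1 under the same settings (Bcl2a1b, 1.91, 1.94 and 1.71) and with no filter (Pmaip1, 1.63). All genes were called at 4.83%, 5.25% and 4.45% in the former and at 2.59%, 3.01%, 3.02% and 0.871% in the latter settings. The cause was not tested. In RMA late against RMA early, leaving out single libraries gave 0 to 1 members called. With the 4 libraries of low immediate early level left out, an alternative chosen after seeing the data, 0 members were called and Bax between RMA late and RMA early was at 0.85 (0.89 with all libraries) with an adjusted p of 0.0697. Same-numbered libraries did not deviate together (mean r = -0.0044 over 64 pairs), and with the replicate block 0 members were called in every comparison, and Bax between RMA late and RMA early was at 0.90 (adjusted p = 0.0545). Bcl2a1d and Bak1 lacked 10 counts in every library and gave no value under that filter, and their depth limits what could be detected.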
